A study of Mus musculus with 4 samples.

Results

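Loss of the ubiquitin ligase Itch was set directly against loss of its relative WWP2 in stimulated mouse CD4+ T cells. The comparison takes 2 of the study's 4 libraries, Itch KO and WWP2 KO, and 9926 of the 21937 genes counted, those with a mean of at least 2 CPM over the 4 libraries, CPM being the read count after each library is scaled to the same total. Genes of type 2 helper (TH2) cells, of mitosis and of effector cells were higher in Itch KO. Of 24 measured genes of naive cells 6 were lower, among them Tcf7, beside 1.15% of all measured genes. The lowest ratio was that of the peptide transporter gene Slc15a2. Genes of the antigen receptor, NF-kB and NFAT machinery mostly stayed within 2-fold, as did most measured genes.

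Itch and WWP2 belong to the NEDD4 family of HECT ubiquitin ligases. Each carries a lipid-binding C2 domain, WW domains that grip PY motifs in substrates or adaptors, and a catalytic HECT domain that passes ubiquitin to the target. Itch is known in T cells for the turnover of JunB, a transcription factor that drives Il4, and mice without it develop TH2-biased inflammation. WWP2 has been linked to the turnover of SMAD proteins and EGR2.

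RNA from splenic CD4+ T cells of B6 mice aged 6 weeks was sequenced after stimulation with PMA and ionomycin, drugs that activate protein kinase C and calcium signalling and so bypass the receptor. Itch KO cells had the genotype Itch f/f with Cd4cre, in which the Cd4 promoter drives Cre in T cells. WWP2 KO cells were WWP2-/-, with no tissue restriction named. The other 2 libraries were wild type, for which no Cre or floxed allele is named, and a library whose label names it DKO, that is, knocked out for both ligases. Neither the stimulation time nor the number of mice per library was stated in the labels.

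Each genotype gave 1 library, so no difference below has a replicate check and none has a p-value. The 4 libraries held 17130747 to 17990392 counted reads. A gene was called higher or lower in Itch KO when the log2 ratio of scaled CPM, with a prior count of 2, was at least 1 in size and the 95% counting interval of the fold excluded 1. Folds carry no prior count, and the range in parentheses after a fold is that interval, which covers counting error only. The labelled cell type was checked on marker levels: 8 T cell markers, among them Cd3e, Cd4 and Lat, summed to 2249 CPM in Itch KO and 2248 in WWP2 KO. Cd4 had 4262 and 2901 reads in these libraries, Cd8a had 9 and 4, and Cd8b1 had 267 and 108.

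The targeted transcripts came first, and 4 values in a row below follow the order Itch KO, WWP2 KO, wild type and library labelled double KO. Wwp2 had 1332 reads in Itch KO and 4 in WWP2 KO, beside 1363 in wild type and 1135 in the labelled double KO library. WWP2 KO thus nearly lacked the transcript, and the direct ratio was 329-fold (128 to 1210). The reads in the library labelled double KO put that label in doubt, and it is used below only as a level beside the others. Itch had 1914, 1996, 2083 and 2389 reads in the same order, a log2 ratio of -0.08 between the single knockouts. A count over the whole gene also takes in exons outside a deleted part, so it does not check the Itch label.

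In all, 459 genes (4.62% of those measured) were higher in Itch KO than in WWP2 KO by at least 2-fold, and 114 genes (1.15%) were lower. The other 9353 genes did not pass the rule, and 82.4% of measured genes lay within 0.5 of 0 on the log2 scale. The median log2 ratio was -0.01, with 5th and 95th percentiles of -0.61 and 0.94. The difference was lopsided in size as well as in number: 135 of the higher genes were past 4-fold and 27 past 8-fold, against 8 and 4 of the lower genes. The higher genes took 1.54% of the reads in Itch KO and 0.564% in WWP2 KO, and the lower genes took 0.258% and 0.648%. Of the 459, 198 lay under 2 CPM in WWP2 KO, and 99 reached the minimum mean only through the library labelled double KO, so that 360 were called without it.

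**Figure D1:**
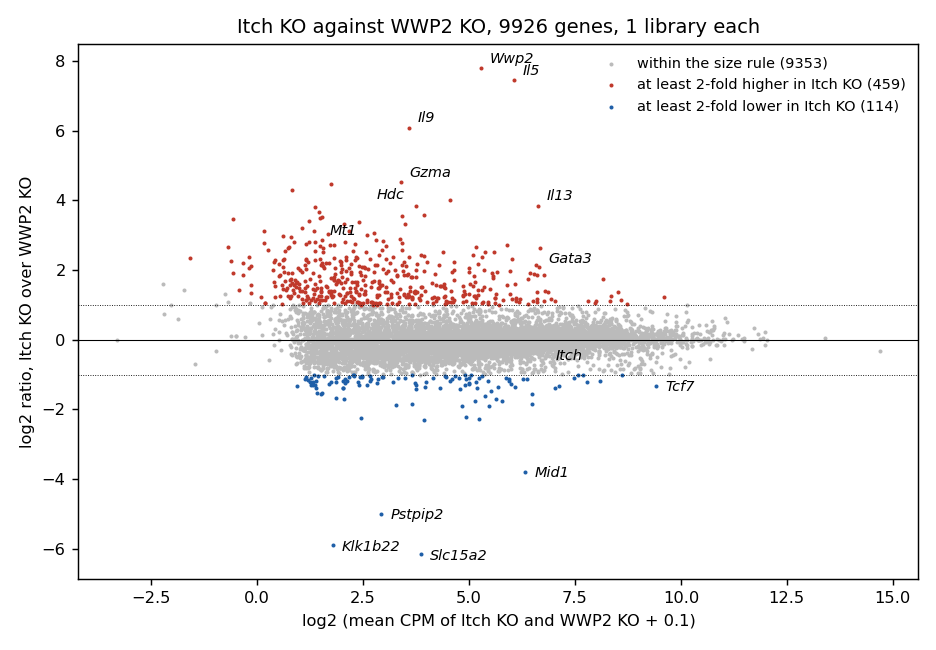
Each point is 1 of the 9926 measured genes. The horizontal axis is the log2 mean CPM of Itch KO and WWP2 KO, and the vertical axis is the log2 ratio of Itch KO over WWP2 KO, with dotted lines at 2-fold. The 459 higher genes spread upwards to 7.79 for Wwp2, while 4 lower genes, Slc15a2, Klk1b22, Pstpip2 and Mid1, lie past 8-fold on the other side.

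The rest of the ligase family stayed within the rule. The list held 7 measured genes, of which Wwp2 alone passed the rule, with a median of -0.08. Nedd4, the founding member, had 34 reads in WWP2 KO and 68 in Itch KO, a log2 ratio of 0.94. Wwp1, a close relative of both ligases, stood at -0.49, Nedd4l at 0.01, Smurf1 at -0.13 and Smurf2 at -0.17. None of 7 measured adaptors passed the rule (median -0.19). With 5.77% of all measured genes past the rule, lists this short would hold few such genes whatever their kind. Ndfip1, the membrane adaptor that activates Itch, had a log2 ratio of 0.59, and the arrestin-like adaptor Arrdc3 one of -0.94.

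Transcripts of reported substrates also stayed within the rule. Of 13 measured targets of Itch 0 passed, with a median of -0.01, and of 8 measured targets of WWP2 0 passed, with a median of 0.04. Over all measured genes 5.77% passed, and lists of 13 and 8 are too short to be set apart from that share. Junb, whose protein Itch ubiquitinates, had 14056 reads in Itch KO and 8008 in WWP2 KO, beside 8819 in wild type and 15843 in the labelled double KO library. It was 1.73-fold higher in Itch KO than in WWP2 KO (1.69 to 1.78), under the 2-fold limit. Jun had a log2 ratio of 0.67. Egr2, a target of WWP2, stood at 0.58. These are transcript levels and carry nothing on the amount of protein.

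TH2 cytokines made up the most shifted list. Of 9 listed genes 8 were measured, 8 were higher in Itch KO and 0 lower, with a median log2 ratio of 4.07 against -0.01 over all genes. Without the library labelled double KO 7 were measured and 7 were higher. Since 5 of the 8 lay under 2 CPM in WWP2 KO and could enter only through another library, the count describes the list and does not test it. In bulk RNA, more cells of a type and more RNA per cell cannot be told apart.

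The proximal promoters of 3 of these genes are shown because the stimulus acts through calcium and NFAT, the factor that calcineurin activates. The NFAT core TGGAAA, read on either strand, is in capitals. The 250 bases before the RefSeq start site (GRCm38.p6) were Il5 at chr11:53720544-53720793 on the plus strand, Il4 at chr11:53618666-53618915 and Il13 at chr11:53634703-53634952, both on the minus strand. Il4 has 2 starts in the RefSeq table, and the farther upstream was taken.
Il5: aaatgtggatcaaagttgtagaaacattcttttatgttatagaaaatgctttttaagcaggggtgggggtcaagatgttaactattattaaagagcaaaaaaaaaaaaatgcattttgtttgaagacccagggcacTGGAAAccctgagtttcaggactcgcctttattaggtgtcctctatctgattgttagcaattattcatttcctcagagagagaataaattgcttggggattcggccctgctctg
Il4: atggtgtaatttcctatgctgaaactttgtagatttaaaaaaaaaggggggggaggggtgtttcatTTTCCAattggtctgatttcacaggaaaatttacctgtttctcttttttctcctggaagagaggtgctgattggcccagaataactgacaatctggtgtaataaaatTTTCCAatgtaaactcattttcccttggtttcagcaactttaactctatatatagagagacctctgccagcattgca
Il13: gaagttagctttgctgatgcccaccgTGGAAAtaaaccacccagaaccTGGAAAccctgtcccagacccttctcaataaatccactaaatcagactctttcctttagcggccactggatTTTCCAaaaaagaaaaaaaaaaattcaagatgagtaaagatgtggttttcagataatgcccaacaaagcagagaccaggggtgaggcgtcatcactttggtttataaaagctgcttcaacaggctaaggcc

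The core lay 114 to 109 bases before the start in Il5. Il4 held it at 184 to 179 and 77 to 72 bases before the start, both on the reverse strand and both overlapping a CCAAT box. Il13 held it at 224 to 219, 202 to 197 and, in reverse, 131 to 126 bases before the start. Among the 8 start sites matched for 7 of the 8 measured cytokine genes, 5 had the core within 250 bases (62.5%), against 18.6% of all 32851 starts and 14.5% of the starts of measured genes. A match is a description of letters and not a binding site, and the expression data do not bear on which factor acts there.

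Il5, which encodes the growth factor of eosinophils, had 2290 reads in Itch KO and 11 in WWP2 KO, beside 11 in wild type and 1990 in the labelled double KO library. It was 206-fold higher in Itch KO than in WWP2 KO (115 to 413), the second highest ratio after Wwp2 itself. Wild type and WWP2 KO lay together at the bottom and the other 2 libraries together at the top. Il13, the cytokine of mucus secretion and airway reactivity, had 3206, 219, 117 and 2997 reads in the same order. It was 14.5-fold higher (12.6 to 16.7), and the 2 low libraries were again wild type and WWP2 KO. Il4, which drives TH2 commitment and class switching, had 236, 31, 27 and 460 reads and was 7.52-fold higher (5.16 to 11.3).

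The other cytokines of the list split by how the fourth library stood. Il9, a mast cell growth factor, had 406 reads in Itch KO and 4 in WWP2 KO, beside 1 in wild type and 41 in the labelled double KO library, 100-fold higher in Itch KO than in WWP2 KO (38.9 to 370). It was the only one of the 8 whose Itch KO level was several times that of the library labelled double KO. Il6 ran the other way, with 57, 1, 1 and 641 reads, and its ratio of 56.3 has a wide interval (9.71 to 2264) because it rests on 1 read. Il3, which stimulates basophils and mast cells, had 109, 3, 16 and 182 reads, a ratio of 35.9 (12.0 to 177). Il10, the anti-inflammatory cytokine, had 455, 95, 103 and 4524 reads and was 4.73-fold higher (3.79 to 5.97). Areg, a growth factor in tissue repair, was 2.44-fold higher (2.12 to 2.80).

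**Figure D2:**
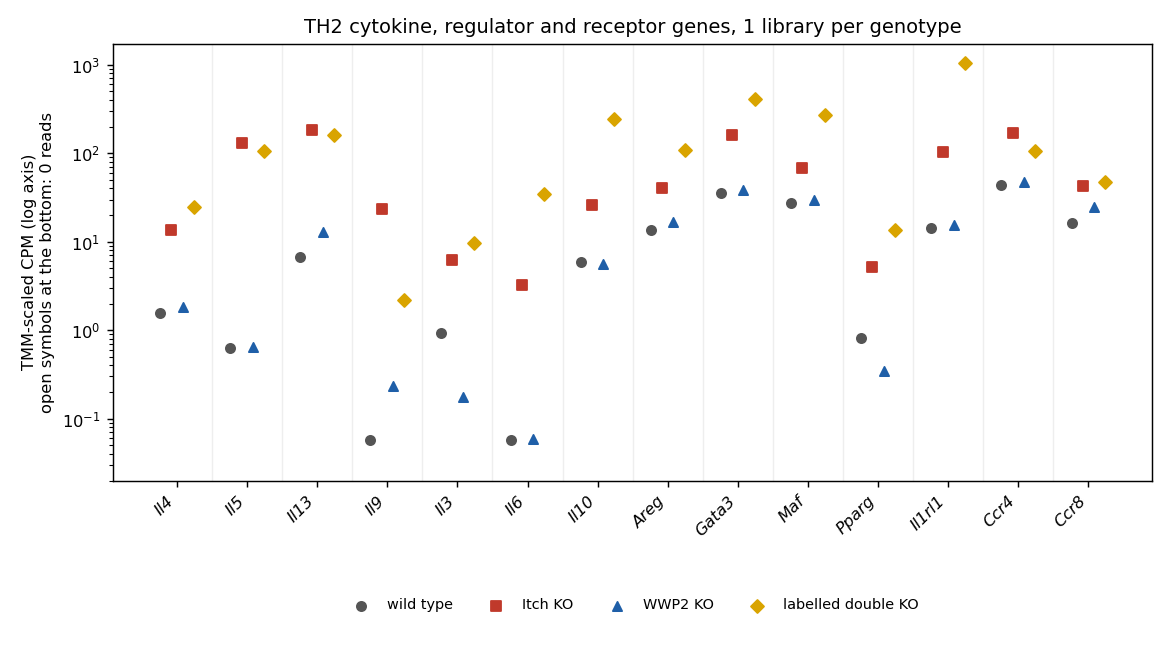
TMM-scaled CPM of TH2 cytokine, regulator and receptor genes on a log axis, with 1 symbol per library and no error bars. In Il5 the Itch KO and labelled double KO symbols lie about 2 decades above those of wild type and WWP2 KO, and the last 2 lie close together for Il4, Gata3, Il10 and Il1rl1.

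Genes that set or mark the TH2 state were shifted less than the cytokines. Of 15 measured regulators and receptors 10 were higher and 0 lower, with a median of 1.18. Gata3, the lineage factor, had 2814 reads in Itch KO and 654 in WWP2 KO, beside 621 in wild type and 7536 in the labelled double KO library, and was 4.25-fold higher in Itch KO (3.90 to 4.64). Il1rl1, the receptor for IL-33, had 1785, 266, 249 and 19545 reads and was 6.63-fold higher (5.83 to 7.57). Both stood in WWP2 KO near the wild-type level. Pparg, a nuclear receptor of pathogenic TH2 cells, had 6 reads in WWP2 KO and 91 in Itch KO, a log2 ratio of 3.53, and the factor Maf was 2.28-fold higher (2.05 to 2.53). Among members within the rule, Stat6, which transmits the IL-4 signal, had a log2 ratio of -0.15, Irf4 one of 0.06 and the receptor chain Il4ra one of 0.54, or 1.46-fold higher.

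Genes of histamine and lipid mediators were among the highest ratios. Of 10 measured, 5 were higher and 0 lower (median 0.97), or 4 of 9 higher without the library labelled double KO. Hdc, the enzyme that makes histamine, had 433 reads in Itch KO and 28 in WWP2 KO, beside 19 in wild type and 11148 in the labelled double KO library. It was 15.3-fold higher in Itch KO than in WWP2 KO (10.4 to 23.3), yet far below the fourth library. Cysltr1, a receptor for cysteinyl leukotrienes, had 764, 45, 43 and 3518 reads and was 16.8-fold higher (12.4 to 23.2). Ltb4r1, the leukotriene B4 receptor, had 5 reads in WWP2 KO and 52 in Itch KO. Mast cells and basophils also express Hdc and Il4. Of their 10 markers only Kit was measured, with 188, 493, 429 and 85 reads. Fcer1a, Ms4a2 and Cma1 had 0 reads in every library and Cpa3 had 1, 0, 2 and 1. The 10 markers summed to 11 CPM in Itch KO and 28.9 in WWP2 KO, nearly all of it Kit. The part of such cells in the Hdc and Il4 results was not tested.

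Other helper programmes were shifted by smaller amounts in the same direction. Of 17 measured TH1 genes 6 were higher (median 0.67), and of 7 TH17 genes 3 (median 0.91). Leaving out the library labelled double KO, 2 of 6 TH17 genes were higher. Of 19 Treg genes 8 were higher (median 0.82), and of 13 follicular helper genes 3, with 1 lower (median 0.31). The lineage factors Tbx21, Foxp3 and Bcl6 stayed within the rule. Tbx21 of TH1 cells had a log2 ratio of 0.20, Foxp3 of regulatory cells one of 0.39 and Bcl6 of follicular cells one of -0.32. Eomes, the relative of Tbx21, had 498 reads in Itch KO and 133 in WWP2 KO, beside 162 in wild type and 124 in the labelled double KO library. It was 3.70-fold higher in Itch KO than in WWP2 KO (3.05 to 4.52), and Itch KO stood above all 3 other libraries.

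Products of those programmes moved unevenly. Il21, the follicular and TH17 cytokine, had 312, 84, 97 and 177 reads and was 3.67-fold higher in Itch KO (2.88 to 4.73). Csf2, which encodes GM-CSF, had 337, 143, 121 and 89 reads and was 2.33-fold higher (1.91 to 2.85). Ifng, the TH1 cytokine, had 469, 291, 312 and 216 reads, 1.59-fold (1.37 to 1.85) and within the rule. Il2 stood at 1.35-fold (1.30 to 1.41) with 5779 and 4226 reads, and Tnf at 1.09-fold (1.05 to 1.13). For Il2, Tnf, Ifng and Csf2 the lowest of the 4 libraries was the one labelled double KO, at 270 reads for Il2. Of 22 measured cytokine genes 11 were higher and 0 lower (median 1.06), a list that shares 8 higher members with the TH2 cytokines. The count was 10 of 21 without the library labelled double KO.

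Surface receptors for migration were higher as a list. Of 14 measured chemokine receptors 9 were higher and 0 lower, with a median of 1.29. The count was 8 of 13 without the library labelled double KO. Ccr2, which draws cells towards inflamed tissue, had 1860 reads in Itch KO and 368 in WWP2 KO, beside 412 in wild type and 10264 in the labelled double KO library, a log2 ratio of 2.31. Ccr3, the eotaxin receptor, was 3.29-fold higher (2.29 to 4.81). Ccr7, which directs naive cells to lymph nodes, had a log2 ratio of -0.39, and Cxcr4 one of -0.49. Of 13 integrin chains 6 were higher (median 0.79). Itga2, the collagen receptor chain, was 8.71-fold higher (5.53 to 14.4) and Itgae, the chain that binds E-cadherin, 3.51-fold (2.78 to 4.45).

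Among 8 measured chemokine ligands 3 were higher and 1 lower. Cxcl3, a neutrophil attractant, had 342, 27, 15 and 1421 reads and was 12.5-fold higher (8.45 to 19.3). Cxcl10, which interferon induces, ran the other way, with 423 reads in Itch KO and 1154 in WWP2 KO, beside 921 in wild type and 226 in the labelled double KO library, 2.76-fold lower in Itch KO than in WWP2 KO (2.47 to 3.09). Ccl5, a chemokine that draws T cells, was 4.70-fold higher (3.94 to 5.65).

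Effector and memory genes followed the cytokines. Of 26 measured 18 were higher and 0 lower, with a median of 1.4, and without the library labelled double KO 17 of 25 were higher. Gzma, a granzyme, had 345 reads in Itch KO and 13 in WWP2 KO, beside 17 in wild type and 3040 in the labelled double KO library, 26.2-fold higher in Itch KO (15.1 to 49.8). Gzmb, its better known relative, had 3025, 480, 767 and 62971 reads and was 6.23-fold higher (5.66 to 6.87). In Gzmb WWP2 KO also lay below wild type, while the 2 were close in Gzma. S100a6, a calcium-binding protein of memory cells, was 5.40-fold higher (4.26 to 6.92), while Id2, a regulator of effector differentiation, stood at 1.14-fold (1.06 to 1.22).

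Coinhibitory receptors were mixed. Of 11 measured 3 were higher, and the median was 0.57. Havcr2, which encodes TIM-3, had 486, 38, 45 and 3850 reads and was 12.6-fold higher in Itch KO than in WWP2 KO (9.08 to 18.1). Tigit had a log2 ratio of 2.13 and Lag3 was 4.06-fold higher (3.03 to 5.52). Cd274, which encodes PD-L1, had a log2 ratio of -0.52. In the TNF superfamily 6 of 23 were higher (median 0.22), led by Tnfrsf8, which encodes CD30, at 4.02-fold (3.11 to 5.26). In the IL-1 receptor family 5 of 10 were higher, or 3 of 8 without the library labelled double KO.

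Mitosis genes were higher almost as a block. Of 37 measured 33 were higher and 0 lower, with a median of 1.65, and all 37 ratios were above 0. Without the library labelled double KO 30 of 34 were higher. In WWP2 KO 10 of the 33 lay under 2 CPM. The list summed to 571.5 CPM in Itch KO and 178.2 in WWP2 KO, beside 189.7 in wild type and 1451 in the labelled double KO library. WWP2 KO was thus close to wild type and Itch KO lay between those 2 and the fourth library.

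Promoters of 3 of these genes are shown because the list moved together and because promoters of the G2 and M phases often carry CCAAT boxes, the letters that NF-Y reads, here in capitals. Ccnb2 and Cdc20 were chosen after their values were seen. The 120 bases before the RefSeq start (GRCm38.p6) were Ccnb1 at chr13:100786487-100786606, Ccnb2 at chr9:70421555-70421674 and Cdc20 at chr4:118437344-118437463, each on the minus strand.
Ccnb1: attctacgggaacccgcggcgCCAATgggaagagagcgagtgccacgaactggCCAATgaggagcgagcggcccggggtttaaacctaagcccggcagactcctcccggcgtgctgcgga
Ccnb2: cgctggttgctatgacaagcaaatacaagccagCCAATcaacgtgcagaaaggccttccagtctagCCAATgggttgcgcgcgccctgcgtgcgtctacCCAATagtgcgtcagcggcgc
Cdc20: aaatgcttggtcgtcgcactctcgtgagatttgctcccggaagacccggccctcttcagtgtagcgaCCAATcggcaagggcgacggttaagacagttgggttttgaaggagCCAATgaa

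Ccnb1 held CCAAT at 99 to 95 and 67 to 63 bases before the start, Ccnb2 at 87 to 83, 54 to 50 and 21 to 17, and Cdc20 at 53 to 49 and 8 to 4. On either strand of the 250 bases before the start, 27 of 35 starts of mitosis genes held the box (77.1%) and 18 held more than 1 (51.4%). The shares were 33.8% and 10.1% of all starts outside chromosome 18, and 35.4% and 13.5% of those of measured genes. The starts of DNA replication genes, of which 7 of 34 measured were higher, held the box in 60.0% and more than 1 in 28.6%. The mitosis starts belonged to 33 of the 37 measured mitosis genes. The CHR element, TTTGAA or TTCGAA, was in 40.0% of mitosis starts, against 17.1% of all and 12.2% of those of measured genes. It was also in 37.5% of the 8 TH2 cytokine starts and 25.9% of the starts of effector and memory genes. E2F sites, spelled GCGGGAA or GGCGCGAA or GCGCGAAA, were in 40.0% of the starts of DNA replication genes and 2.86% of those of mitosis genes. They were in 4.35% of all starts and 8.12% of those of measured genes.

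Ccnb1, the cyclin that drives entry into mitosis, had 210 reads in Itch KO and 27 in WWP2 KO, beside 46 in wild type and 632 in the labelled double KO library. It was 7.69-fold higher in Itch KO than in WWP2 KO (5.14 to 11.9). Ccnb2 had 85, 13, 22 and 274 reads and was 6.46-fold higher (3.58 to 12.6), and Cdc20, the activator of the anaphase-promoting complex, had 173, 69, 70 and 399 and was 2.48-fold higher (1.86 to 3.33). The order of the libraries was the same in the 3 genes, though WWP2 KO and wild type were nearly equal in Cdc20, at 69 and 70 reads. Ccna2, the cyclin of S and G2 phase, was 7.07-fold higher (5.17 to 9.89). Cenpa, the centromeric histone, and Mad2l1, a spindle checkpoint protein, each had a log2 ratio of 0.48 and did not pass.

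DNA replication genes moved far less. Of 34 measured 7 were higher and 0 lower, with a median of 0.32. Without the library labelled double KO 6 of 31 were higher. In WWP2 KO 3 of the 7 lay under 2 CPM. Mcm10, a DNA replication factor, had 83, 11, 14 and 214 reads and was 7.46-fold higher (3.96 to 15.5). Rrm2, the ribonucleotide reductase subunit, was 3.99-fold higher (3.22 to 4.99), and Tyms, which makes thymidylate, 2.20-fold (1.55 to 3.17). The primase subunit Prim1 had a log2 ratio of -0.29 and the clamp loader subunit Rfc5 one of -0.12.

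Of 12 listed MHC class II genes, which antigen-presenting cells express, 6 were measured, 4 were higher in Itch KO and 0 lower, with a median of 2.35. Since 3 of the 4 lay under 2 CPM in WWP2 KO and met the level minimum only through other libraries, the count describes the list and does not test it. H2-Eb1 had 167 reads in Itch KO and 14 in WWP2 KO, beside 30 in wild type and 78 in the labelled double KO library, 11.8-fold higher in Itch KO (6.83 to 22.0). H2-Aa had 207, 23, 24 and 81 reads, 8.90-fold higher (5.77 to 14.3), and H2-Ab1 147, 20, 18 and 58, 7.27-fold higher (4.54 to 12.2). These 3 genes were highest in Itch KO, whereas Cd74, the invariant chain, was highest in the library labelled double KO at 1362 reads against 878 in Itch KO.

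Markers of antigen-presenting cells were low but not level beside them. Ms4a1, a B cell surface protein, had 10 reads in Itch KO and 1 in WWP2 KO, beside 1 in wild type and 0 in the labelled double KO library. Pax5 had 0 reads in every library, and Cd79a had 16, 39, 34 and 14. The B cell list summed to 9.22 CPM in Itch KO and 5.25 in WWP2 KO, beside 4.67 in wild type and 11.8 in the labelled double KO library, and of its 13 genes only Sdc1 was measured. Of 10 dendritic cell markers 3 were measured and 2 were higher. Siglech had 26, 2, 9 and 0 reads and Itgax 27, 2, 12 and 38, and the list summed to 45.8, 36.5, 42.0 and 47.5 CPM. The macrophage list summed to 11.5 CPM in Itch KO and 7.0 in WWP2 KO, with 0 reads of Csf1r in both. Cd8b1, a marker of CD8 T cells, was 2.44-fold higher (1.95 to 3.08). The part of such cells in the MHC class II result was not tested.

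In some of the higher genes WWP2 KO, not Itch KO, lay farther from wild type. Mt1, a metallothionein that buffers zinc, had 88 reads in Itch KO and 6 in WWP2 KO, beside 40 in wild type and 735 in the labelled double KO library. It was 14.5-fold higher in Itch KO than in WWP2 KO (6.40 to 40.6), with wild type between the 2. Mt2 had 66, 8, 28 and 282 reads and was 8.15-fold higher (3.91 to 19.7). The zinc exporter Slc30a1 was 2.06-fold higher (1.60 to 2.67). The list of metallothioneins and zinc transporters as a whole had 4 of 17 higher and a median of 0.13, or 3 of 16 higher without the library labelled double KO. Phlda3, a p53-induced inhibitor of AKT, had 124, 46, 170 and 75 reads, 2.66-fold higher in Itch KO (1.89 to 3.82). Pttg1, which encodes securin, had 183, 63, 216 and 315 reads, 2.87-fold higher (2.15 to 3.89), and Pepd, a dipeptidase, 783, 374, 912 and 473, 2.07-fold higher (1.83 to 2.35). Efr3b, a membrane scaffold, was 3.68-fold higher (2.34 to 5.97). In Phlda3, Pttg1 and Pepd the wild-type library lay above both single knockouts.

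The lowest ratio of all belonged to Slc15a2, a transporter of small peptides. It had 5 reads in Itch KO and 493 in WWP2 KO, beside 506 in wild type and 490 in the labelled double KO library, and was 99.8-fold lower in Itch KO than in WWP2 KO (42.5 to 309). The other 3 libraries were alike, so the library labelled double KO did not share the near loss seen in Itch KO.

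A further 3 genes past 8-fold were low in Itch KO and also in wild type. Mid1, a ubiquitin ligase of microtubules on the X chromosome, had 185 reads in Itch KO and 2570 in WWP2 KO, beside 89 in wild type and 3839 in the labelled double KO library, 14.1-fold lower in Itch KO (12.1 to 16.4). Klk1b22, a kallikrein, had 0, 115, 0 and 508 reads and was at least 38.8-fold lower in Itch KO, taking 3 counts there, and the lower end of the counting interval is 31.0-fold. Its near-identical relatives can share its reads, so the value is uncertain. Pstpip2, a membrane-bending protein of macrophages, had 6, 251, 19 and 32 reads, 42.3-fold lower (19.2 to 116), and only WWP2 KO was high. Mid1 and Klk1b22 instead paired WWP2 KO with the library labelled double KO.

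**Figure D3:**
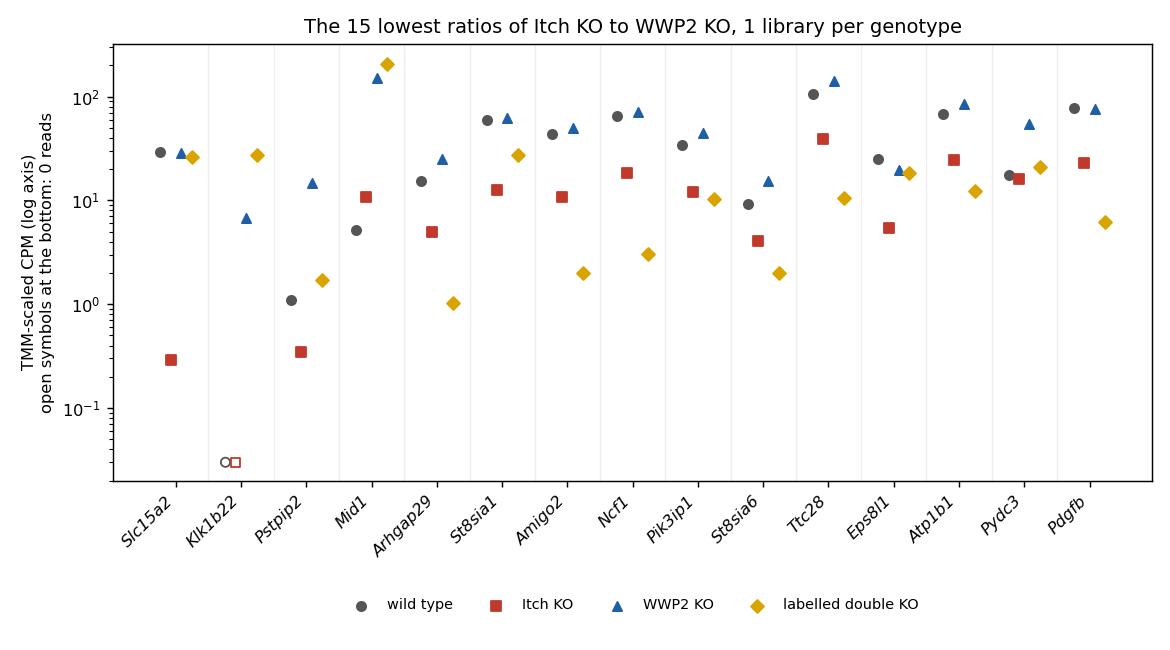
TMM-scaled CPM of the 15 genes with the lowest ratios on a log axis, 1 symbol per library, with open symbols at the bottom for 0 reads. Slc15a2 is low in Itch KO only, and Mid1 and Klk1b22 are high in WWP2 KO and the library labelled double KO. The genes whose lowest symbol is that of the library labelled double KO include Amigo2, Ncf1, Ttc28, Pdgfb, Arhgap29 and Atp1b1.

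The rest of the 15 lowest ratios lay between -2.32 and -1.71. In each of these genes but Pydc3, wild type was nearer to WWP2 KO than to Itch KO. St8sia1, a sialyltransferase that makes gangliosides, had 220 reads in Itch KO and 1069 in WWP2 KO, beside 1027 in wild type and 509 in the labelled double KO library. It was 4.92-fold lower (4.25 to 5.71), and its relative St8sia6 was 3.77-fold lower (2.89 to 4.98). Amigo2, an adhesion protein, had 185, 860, 760 and 37 reads and was 4.70-fold lower (4.01 to 5.54). Ncf1, the p47 subunit of the phagocyte oxidase, had 322, 1208, 1136 and 57 reads and was 3.80-fold lower (3.35 to 4.31). For Amigo2 and Ncf1 the library labelled double KO was lower still. Pik3ip1, which restrains PI3 kinase in resting T cells, was 3.73-fold lower (3.20 to 4.37), and Pdgfb, a growth factor, 3.28-fold (2.93 to 3.68). Eps8l1, an actin regulator, had 93, 333, 433 and 338 reads and was lowest in Itch KO. Pydc3, an interferon-induced protein, was the exception, with 277, 926, 302 and 391 reads: here WWP2 KO stood above the other libraries.

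WWP2 KO also stood above wild type in genes with smaller ratios. Msi2, an RNA-binding protein, had 791 reads in Itch KO and 2300 in WWP2 KO, beside 848 in wild type and 645 in the labelled double KO library, 2.94-fold lower in Itch KO than in WWP2 KO (2.71 to 3.19). Enc1, an actin-binding protein, had 1265, 3256, 1685 and 1874 reads, 2.60-fold lower (2.44 to 2.78). Setbp1, a DNA-binding protein, had 124, 333, 79 and 915 reads, 2.72-fold lower (2.20 to 3.37). These 3 were among 17 of the 114 lower genes in which wild type was nearer to Itch KO.

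Genes of the naive and resting state gave the other lower group. Of 24 measured 6 were lower and 0 higher, beside 1.15% and 4.62% of all measured genes, with a median of -0.29. Tcf7, the factor of naive and memory cells, had 6746 reads in Itch KO and 16727 in WWP2 KO, beside 16212 in wild type and 3257 in the labelled double KO library, 2.51-fold lower in Itch KO (2.44 to 2.58). Wild type and WWP2 KO nearly coincided in Tcf7. Dapl1, a gene of naive cells, had 28, 93, 103 and 19 reads and was 3.36-fold lower (2.18 to 5.33). Il7r, the receptor for the survival cytokine IL-7, stood at 1.10-fold (1.01 to 1.19).

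Interferon-stimulated genes had ratios of both signs, 9 above 0 and 17 below. Of 26 measured 3 were lower and 1 higher, beside 1.15% and 4.62% of all measured genes, with a median of -0.13. Without the library labelled double KO 24 were measured, with 3 lower and 0 higher. Ifit2, an RNA-binding antiviral protein, had 330, 771, 756 and 220 reads and was 2.36-fold lower in Itch KO (2.08 to 2.70), Ifit3 was 2.23-fold lower (1.66 to 3.02) and Ifit1 2.17-fold (1.83 to 2.59). Mx1 was the gene higher in Itch KO, at 57 reads against 18, and Isg15 stood at 1.69-fold (1.41 to 2.03).

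**Figure D4:**
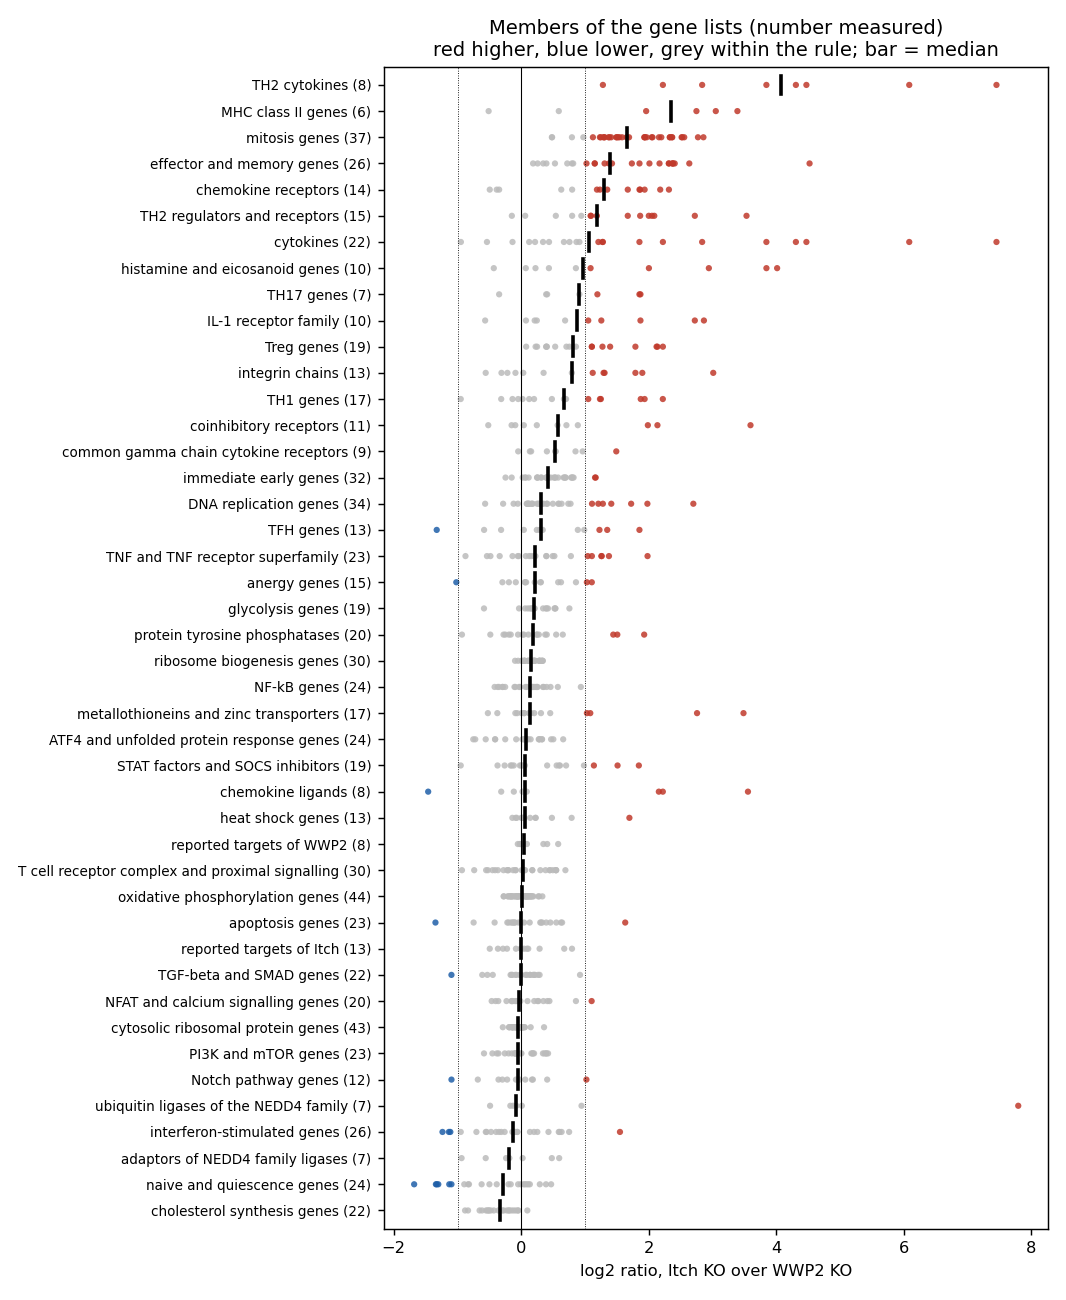
Log2 ratio of Itch KO over WWP2 KO for each measured member of the 44 function lists, ordered by median (black bar), with the number measured in parentheses. Red points are higher, blue points lower and grey points within the rule. TH2 cytokines, with a median of 4.07, are at the top, and the 30 T cell receptor genes, 24 NF-kB genes and 44 oxidative phosphorylation genes show grey points only.

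Genes of the signalling machinery below the antigen receptor seldom passed the rule, as was so of measured genes at large, of which 5.77% passed. In lists this short that share comes to few genes, so the counts do not set these lists apart. None of 30 measured genes of the receptor complex and its proximal signals passed the rule (median 0.02), from Ptpn6 at -0.93 to Lcp2 at 0.69. Ptpn6, which encodes the phosphatase SHP-1, had 1174 reads in Itch KO and 2214 in WWP2 KO, beside 2391 in wild type and 1196 in the labelled double KO library, 1.91-fold lower in Itch KO (1.78 to 2.05). Of 24 NF-kB genes 0 passed (median 0.13), with Bcl3 the highest at 0.93, and of 20 NFAT and calcium genes 1 was higher, the kinase gene Camk2d at 2.15-fold (2.01 to 2.30). Of 23 genes of PI3 kinase and mTOR signalling 0 passed (median -0.06). Of 22 TGF-beta and SMAD genes Id3 alone was lower, at 2.14-fold (1.89 to 2.44).

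Genes that the stimulus induces within the first hours were slightly higher as a list. Of 32 immediate early genes 2 were higher, Fosb at 2.25-fold (2.05 to 2.46) and Atf3 at 2.23-fold (2.09 to 2.38). This is near the 4.62% of all measured genes called higher, so the count does not set the list apart. The median was 0.42, with 30 of 32 ratios above 0. Egr1 stood at 1.77-fold (1.72 to 1.82) and Egr3 at 1.24-fold (1.13 to 1.35). Feedback genes of cytokine signals were higher in part. Of 19 STAT factors and SOCS inhibitors 3 were higher, Socs3 at 3.60-fold (3.20 to 4.06), Socs2 at 2.87-fold (2.42 to 3.40) and Cish at 2.20-fold (2.12 to 2.28), all inhibitors of cytokine receptors. Of 23 measured apoptosis genes 1 passed in each direction, beside 4.62% of all measured genes higher and 1.15% lower. Both encode BH3-only proteins: Pmaip1 was 3.12-fold higher (2.58 to 3.79) and Bbc3 2.56-fold lower (2.12 to 3.12). Among anergy genes Dgka, a kinase that ends diacylglycerol signals, had 4453, 8925, 7093 and 8269 reads and was 2.03-fold lower (1.96 to 2.10), a call lost with DESeq2 size factors (log2 ratio -0.997).

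Metabolic and housekeeping lists passed the rule rarely or not at all, beside 5.77% of all measured genes. No measured gene passed among 19 of glycolysis (median 0.20), 24 of ATF4 and the unfolded protein response (0.07), 30 of ribosome biogenesis (0.16), 43 cytosolic ribosomal protein genes (-0.05) and 44 of oxidative phosphorylation (0.01). The 22 cholesterol synthesis genes had the lowest median of the 44 lists, -0.33, and 21 of 22 ratios were below 0. Nsdhl, a late enzyme of the pathway, was 1.85-fold lower in Itch KO (1.57 to 2.18) and Dhcr7, the last reductase, 1.79-fold (1.54 to 2.08).

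The wild-type level was set beside the called genes. Wild type was nearer to WWP2 KO in 445 of the 459 higher genes (96.9%) and 97 of the 114 lower genes (85.1%), against 66.7% of all measured genes. Because each gene was chosen for a distance between the knockouts, another library tends to fall between them, and these counts are a description. Among the higher genes, wild type lay between the knockouts in 254, below WWP2 KO in 200 and above Itch KO in 5. Among the lower genes it lay between them in 86, above WWP2 KO in 25 and below Itch KO in 3. The direct comparison also passed genes that were within 2-fold of wild type in both knockouts, 51 higher and 46 lower. Of these, taken after their values were seen as the most abundant, Rbpj, the nuclear factor of Notch signals, had 9804 reads in Itch KO and 4775 in WWP2 KO, with 5176 in wild type. Its call was lost with total counts (log2 ratio 0.995). Mmp10, a secreted protease, had 2250, 661 and 1200. Ugcg, which makes glucosylceramide, had 2283, 5240 and 4313, and was 2.32-fold lower in Itch KO than in WWP2 KO (2.21 to 2.44).

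The remaining pair, wild type and the library labelled double KO, enters none of the ratios of the direct comparison. It is not separate from it, because the level minimum is a mean over all 4 libraries and 99 of the 459 higher genes met it only through the library labelled double KO. In this pair 1220 genes passed the same rule upwards (12.3% of those measured) and 629 downwards (6.34%). Of the 459 genes higher in Itch KO than in WWP2 KO, 408 were also higher there, which is 88.9% of the first list and 33.4% of the 1220, and 6 were lower. The median log2 ratio of the 459 in that pair was 2.80, against -0.03 over all measured genes. Without those 99, 311 of 360 genes were higher there (86.4%) and 6 lower, with a median of 2.58. Of the 114 lower genes, 52 were lower there (45.6% of the list and 8.27% of the 629) and 4 were higher. Across measured genes, which are not independent replicates, Pearson's r between the 2 sets of ratios was 0.614 and Spearman's rho was 0.358. At a mean of at least 10 CPM (7914 genes) r was 0.602. Genes that break the pattern include Slc15a2 and Pstpip2, low in the direct comparison and with log2 ratios of -0.15 and 0.60 in the other pair, and Mid1, at -3.80 and 5.30.

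**Figure D5:**
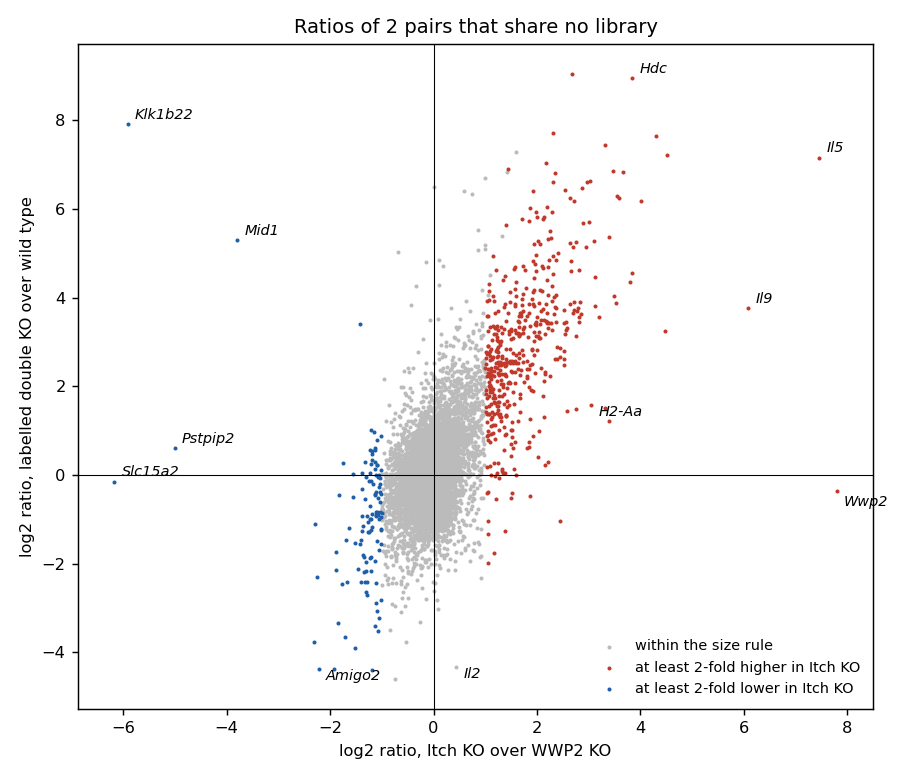
Log2 ratio of labelled double KO over wild type (vertical) against that of Itch KO over WWP2 KO (horizontal), 1 point per measured gene. Most red points, higher in Itch KO, lie above 0 on both axes, whereas Mid1 and Klk1b22 lie at the upper left, Slc15a2 and Pstpip2 at the far left, and Wwp2 at the far right.

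The called genes were spread over the genome. Over the 20 chromosomes with at least 100 measured genes, the share called higher ran from 3.29% to 6.33% and the share called lower from 0.362% to 2.01%. Among the 10 measured genes on each side of Itch, Ggt7, a transferase of the glutathione cycle, was the only one to pass, with 27, 56, 38 and 77 reads and 2.10-fold lower in Itch KO (1.30 to 3.46). This call was lost with DESeq2 size factors (log2 ratio -0.996) and at a prior count of 5 (-0.948). None of the 10 on each side of Wwp2 passed, with log2 ratios from -0.23 to 0.42.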

How the data were processed

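The authors deposited a single table of unnormalized read counts, with 21937 gene symbols in rows and the 4 libraries in columns. The submitters' processing notes name HTSeq 0.7.1, TopHat 1.4.1, Bowtie 1.0.0 and the mouse build mm9. No source used here gives the annotation, read length or strand setting, so antisense partners and near-identical genes may share or lose reads.

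Counts were scaled by TMM factors from all 4 libraries, 0.983 to 1.03, with edgeR 4.0.16 in R 4.3.3, used for scaling only. The size rule used a mean of at least 2 CPM, a prior count of 2, at least 2-fold and an exact conditional binomial 95% interval. It was also run on simulated counts whose spread was set and not measured here, so that run does not check the calls. No molecular identifiers were used, so reads may be copies of 1 molecule. Genes of 44 function lists and 12 marker lists were described by counts and medians.

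The members, lists and rules were chosen with earlier results of these data known. Named genes were both targeted genes, the 15 genes at each end of the ratios past the rule, a fixed set, the outermost members of each list, at most 3 at either end, and any ligase, adaptor or target gene past the rule. The ranking passed over sex-linked genes, receptor segments, small RNAs and unnamed gene models. Genes in which wild type was nearer to the unusual side, neighbours of the targets, and markers were chosen after their values were seen. Some genes named by these rules are not reported here. Promoters came from RefSeq (GRCm38.p6), matched by symbol or synonym, and those on chromosome 18 were left out. Alternatives changed the scaling, with DESeq2 1.42.0 size factors among them, the level minimum, the prior count and the interval. Other work used scipy 1.17.1, pandas 2.3.3, numpy 2.4.6 and matplotlib 3.10.9 under Python 3.11.15.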

Additional observations from a re-analysis of the deposited data

How the results depend on the processing

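Of 22 recomputed counts of called genes 19 stayed within 1.5 times the counts reported. The exceptions came from the level minimum. With no minimum 244 genes were lower in Itch KO in place of 114, and at a mean of at least 10 CPM 226 genes were higher and 61 lower. Other scalings gave 451 to 470 higher and 105 to 123 lower genes. Without the library labelled double KO, an alternative chosen after seeing the data, 360 genes were higher and 116 lower, because 99 of the 459 then fell under the minimum. Of 138 called genes in the named set, 8 fell under 2-fold in some scaling or prior count, among them Dgka, Rbpj and Ggt7. The ratio changed sign for 7 named genes, all close to 0 and none called, Nedd4l and Arrdc1 with total counts among them. The median changed sign for 2 lists of 2 or 3 measured genes. That of dendritic cell markers became -0.0607 at 10 CPM. That of stroma and endothelium markers became -0.350 at 10 CPM and with the minimum taken over Itch KO and WWP2 KO alone, and -0.346 without the library labelled double KO; fewer genes were then measured. Depth was alike in the 4 libraries and limits mainly genes under 2 CPM. No paired analysis was possible because each genotype has 1 library. With 1 library per genotype, differences between mice, cultures and genotypes cannot be told apart.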
